A study of Mus musculus with 12 samples.

Results

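The genes of neutrophils and of antimicrobial alarmins comprised 8 named genes of the 23282 entries in each count table, chosen as a group by name: S100a8, S100a9, Lcn2, Csf3r, Retnlg, Trem1, Ngp and Camp. They were measured in dorsal skin of male C57BL/6J mice that were 5 weeks old at the start. All mice received 0.5% 2,4-dinitrochlorobenzene (DNCB), a hapten that induces dermatitis resembling atopic dermatitis (AD), on the back 3 times a week for 6 weeks. The AD group (5 mice) ate standard chow, and the HF + AD group (7 mice, labelled AD+OB) ate a diet with 60 kcal% fat for 10 weeks, of which 4 weeks preceded DNCB. Mice were fasted for 12 h before the skin was taken. Each library is labelled as a separate sample and was read here as 1 mouse, which the labels do not state. Untreated skin and skin of mice on the fatty diet without DNCB were not analysed here, so no value below says what DNCB or the diet did alone. The comparison asks whether the diet went with a different level of these genes in skin that already had dermatitis.

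S100a8 and S100a9 encode the subunits of calprotectin, a calcium- and zinc-binding complex that is stored in neutrophils, is made by stressed keratinocytes as well, and signals through Toll-like receptor 4 once released. Lcn2 encodes lipocalin 2, which withholds iron from bacteria by binding their siderophores and is also made by inflamed epithelium. The remaining genes are more nearly limited to myeloid cells. Csf3r encodes the receptor for granulocyte colony-stimulating factor, Retnlg a resistin-like protein of neutrophils, Trem1 a receptor that amplifies myeloid activation through the adaptor Tyrobp, and Ngp and Camp proteins of neutrophil granules, the latter the precursor of the antimicrobial peptide cathelicidin. Mature neutrophils keep little messenger RNA for granule proteins, because those are made mainly in the bone marrow.

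The libraries held 9746937 to 11688979 counted reads in AD (median 11111566) and 10726845 to 13462434 in HF + AD (median 12398847). Fewer genes had a read in AD (13100 to 15063) than in HF + AD (15522 to 16677). From the share of genes without a read, 1 independently sampled molecule was estimated to stand for 12 to 32.2 counts in AD and 3.86 to 7.29 counts in HF + AD, an estimate that also takes in differences between mice. On that scale 3 molecules correspond to 3.17 to 8.99 CPM (counts scaled to the total of each library) in an AD library and 0.924 to 2.04 CPM in an HF + AD library. The depth for genes of low level was therefore lower in AD, and this difference cannot be told apart from the groups. In whole skin, fewer cells of a type and less RNA per cell cannot be told apart either.

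The calprotectin genes lie next to each other on chromosome 3. In the GENCODE annotation of GRCm38, S100a8 spans chr3:90668978-90670035 on the plus strand, and S100a9 spans chr3:90692632-90695721 on the minus strand. The gap is 22596 bases and holds 0 annotated genes. The sequence before each start site is shown because these genes are described as a pair below; it is RefSeq sequence of GRCm38.p6, written 5′ to 3′ on the strand of the gene and ending at the base before the start site. Capitals mark the only matches to the motifs searched. For S100a9 (chr3:90695722-90695971, minus strand) 250 bases are given, with a match to the C/EBP motif TTGCNNAA that begins 236 bases before the start. For S100a8 (chr3:90669041-90669070, plus strand) the last 30 bases are given, with the TATA box letters TATAAA beginning 30 bases before the start. The RefSeq start of S100a8 (position 90669071) lies 93 bases inside the GENCODE span, so this stretch precedes the RefSeq start alone.
S100a9: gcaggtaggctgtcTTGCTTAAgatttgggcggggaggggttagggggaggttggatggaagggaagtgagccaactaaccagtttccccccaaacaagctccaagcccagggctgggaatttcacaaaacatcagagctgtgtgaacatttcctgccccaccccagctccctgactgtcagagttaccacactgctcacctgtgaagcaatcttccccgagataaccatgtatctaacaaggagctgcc
S100a8: TATAAAagcagctgacacttagcctcacat
All 8 genes had an entry among the RefSeq promoters, and both strands of the 250 bases before each start were searched. The C/EBP motif, bound by factors that drive granulocyte maturation, was present for 4 of 8 genes and in 9.55% of 27025 promoters. Besides S100a9 these were Lcn2 (TTGCTCAA, 216 bases before the start), Retnlg (TTCTGCAA on the opposite strand, 246 bases before) and Ngp (TTGCCCAA at 138 bases and TTGGGCAA on the opposite strand at 11 bases). The whole Lcn2 window (chr2:32387740-32387989) lies inside its GENCODE span (chr2:32384633-32388252), and so does the Ngp match at 11 bases in the span of Ngp. These 2 matches precede the RefSeq start alone. TATAAA was present for 1 of 8 genes and in 13% of promoters. The AP-1 motif TGANTCA (6.87% of promoters) and the 10-letter NF-kB motif (3.75%) were present for 0 of 8. No motif overlapped another in these windows. The motifs and their window were changed after their first matches had been seen, so these shares are descriptions and carry no test. A match describes letters in a window and not a bound site, and the absence of a match says nothing of the factor.

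None of the genes that could be tested passed the test between groups. Of the 8 genes, 5 had enough reads to be tested (S100a8, S100a9, Lcn2, Retnlg and Trem1), and 0 of 5 had an adjusted p below 0.05 in edgeR's quasi-likelihood test, against 9.2% of the 14163 genes tested. At an unadjusted p below 0.05 there were 3 of 5, 1 higher and 2 lower in HF + AD, against 25.1% of all genes tested. DESeq2 called 0, with no adjusted p for S100a8 and S100a9, and limma-trend called 0. The median log2 fold change of the 5 was 0.91, beside 0.02 over all genes tested, and 3 of 5 lay above 0, as did 51.7% of all genes. Csf3r, Ngp and Camp were left out by the filter on low counts. With no filter their adjusted p was 0.405, 0.403 and 0.177 by edgeR.

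**Figure D1:**
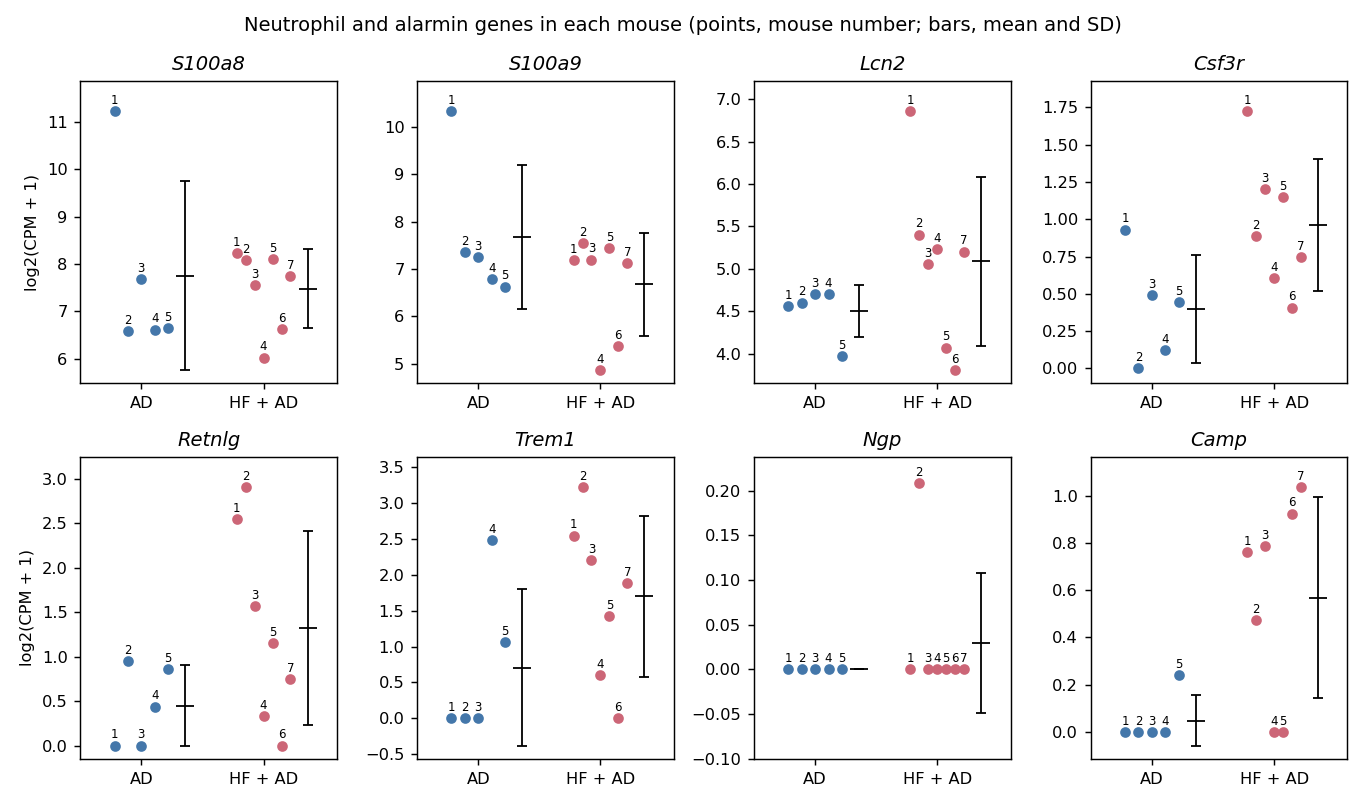
Level of each of the 8 genes as log2(CPM + 1) in every mouse, AD in blue (5 mice) and HF + AD in red (7 mice), with the number of the mouse above each point and the mean and SD as bars. The vertical scale differs between genes. AD mouse 1 stands far above the rest for S100a8 and S100a9 and not for Lcn2. It had 0 reads of Retnlg and Trem1, in a library with an estimated 32.2 counts per molecule. For Csf3r it was the highest AD mouse, with 10 reads.

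S100a8 was measured in AD mice 1 to 5 at 2400, 95.3, 204, 97.0 and 99.3 CPM. In HF + AD mice it ranged from 63.9 to 299 CPM with a median of 214 CPM. The single highest library was thus an AD library, while 4 of the 5 AD libraries lay below the median of HF + AD. The log2 fold change of HF + AD over AD was -1.53 ± 0.70 (SE) in edgeR (unadjusted p = 0.0426, adjusted p = 0.181). Without AD mouse 1 it was 0.70 (edgeR adjusted p = 0.212), so the direction turned on that mouse. On the log2(CPM + 1) scale, which gives an extreme mouse less weight, the mean was 7.75 ± 2.0 (SD, n = 5) in AD and 7.48 ± 0.844 (SD, n = 7) in HF + AD, and an exact permutation test of the difference gave p = 0.818, two-sided. That difference was -0.27 with all mice and 0.60 without AD mouse 1 (exact p = 0.252).

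S100a9 followed the same mouse. Its levels were 1290, 163, 151, 109 and 97.9 CPM in AD mice 1 to 5. In HF + AD they ranged from 28 to 186 CPM around a median of 145 CPM, and 2 of 7 mice (4 and 6) were below every AD mouse. The edgeR log2 fold change was -1.57 ± 0.60 (SE, unadjusted p = 0.0178, adjusted p = 0.108). Without AD mouse 1 it shrank to -0.08 (edgeR adjusted p = 0.924). The log2(CPM + 1) means were 7.67 ± 1.52 (SD, n = 5) and 6.67 ± 1.09 (SD, n = 7), with p = 0.251 by the exact permutation test.

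AD mouse 1 held 24.5 times the median of the other AD mice for S100a8 and 9.94 times for S100a9. Several of the listed epidermal genes stood high with them in that mouse, and others less so. The hyperproliferation keratins Krt6b and Krt16 were 6.3 and 5.09 times the median of the other AD mice, and Krt6a and Krt17 were 2.2 and 1.45 times. The cornified envelope gene Sprr2d was 12.5 times. Among the basal and suprabasal keratins, Krt10 and Krt1 were 6.45 and 4.97 times, Krt14 was 2.11 times, and Krt5 and Krt15 were both 1.03 times. The stefin A cysteine protease inhibitors Stfa1, Stfa2, Stfa3 and BC100530, listed here among the other neutrophil genes, were 4.91, 9.79, 5.02 and 4.99 times. These near-identical copies share reads, and their separate counts are uncertain. The summed markers of hyperproliferative epidermis reached 21000 CPM in AD mouse 1, against 6850 to 9560 CPM in the other AD mice and 7130 to 18100 CPM in HF + AD. Haemoglobin and other erythroid genes summed to 2770 CPM, against 129 to 692 CPM and 185 to 1690 CPM, a sum that counts near-identical beta-globin copies with shared reads more than once. Macrophage and dendritic cell markers summed to 213 CPM there, against 47.6 to 95.4 CPM in the other AD mice and 74.9 to 318 CPM in HF + AD. T cell markers summed to 42.2 CPM, against 6.63 to 19.2 CPM and 7.31 to 14.9 CPM. In AD mouse 1 only Icos (17.4 CPM) and Cd3g (9.61 CPM) of them lay above the 8.26 CPM of 3 molecules. Mast cell markers summed to 227 CPM, against 103 to 156 CPM and 103 to 293 CPM. The summed neutrophil markers were at 2.81 CPM there, within an AD range of 0.706 to 8.66 CPM. That sum was below the 8.26 CPM of 3 molecules in this library, so it was not resolved. The part of these values in the calprotectin levels was not tested.

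**Figure D2:**
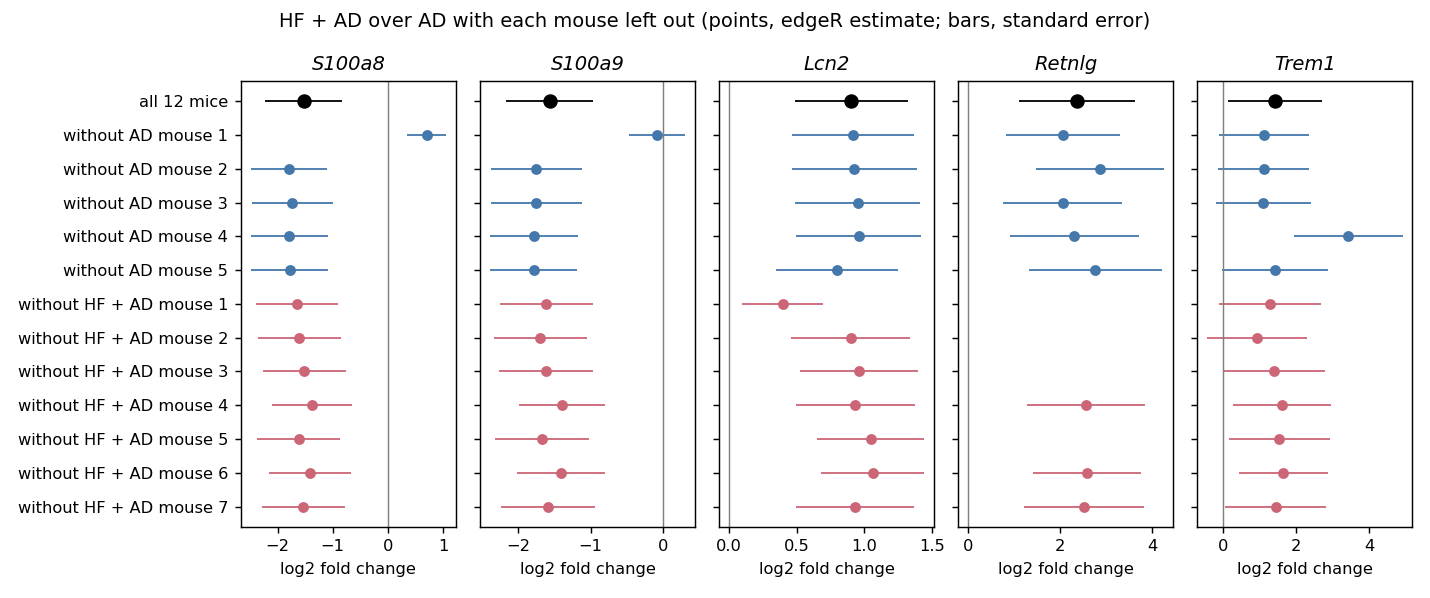
log2 fold change of HF + AD over AD from edgeR for the 5 tested genes with all 12 mice (black) and with each mouse left out (blue, AD mice; red, HF + AD mice), with the standard error as bars. S100a8 crosses 0 when AD mouse 1 is left out, and S100a9 comes close to 0; a missing point means that the gene did not pass the filter on low counts in that subset.

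The balance of the subunits was compared within each library, where the scaling to library totals cancels. The error from sampling few molecules does not cancel. By the estimate above, 1 molecule stood for 12 to 32.2 counts in AD and 3.86 to 7.29 in HF + AD. AD mouse 2 had 921 and 1571 counts of the 2 genes at 29.2 counts per molecule. The part of this in the quotients was not tested. Counts of S100a8 divided by those of S100a9 were 1.86, 0.586, 1.35, 0.89 and 1.01 in AD mice 1 to 5. In HF + AD the quotient ranged from 1.29 to 2.42 with a median of 1.59. The ranges overlapped, since 3 of 7 HF + AD mice were above every AD mouse. On the log2 scale the mean was 0.08 ± 0.63 (SD, n = 5) in AD and 0.82 ± 0.35 (SD, n = 7) in HF + AD, a 1.66-fold difference (exact permutation test, two-sided p = 0.0253, not adjusted for the single-gene tests given here). Leaving out AD mouse 1 raised the log2 difference from 0.73 to 0.94 (exact p = 0.00606). The p passed 0.05 when AD mouse 2 (0.0727, exact permutation test) or AD mouse 4 (0.0545, exact permutation test) was left out. The quotient is of reads from the 3′ ends of the messages. It was compared between mice only and gives neither the relative level of the messages nor a ratio of protein subunits.

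**Figure D3:**
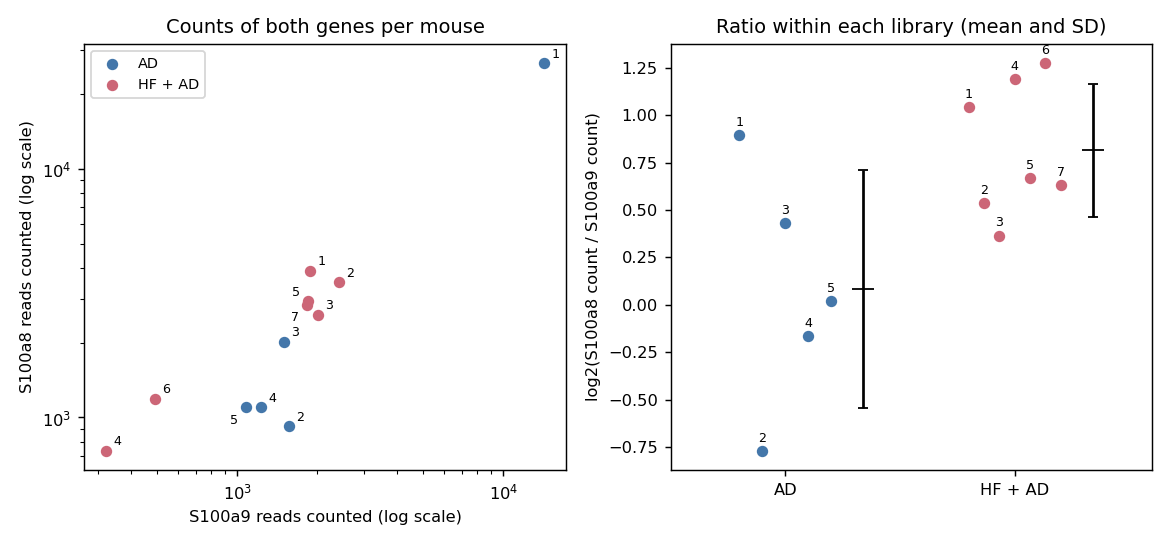
Left, counted reads of S100a8 against S100a9 in each mouse on log axes, with the number of the mouse beside each point. Right, log2 of the quotient of the counts per mouse with the mean and SD as bars; 3 of the 7 HF + AD mice (red) lie above all 5 AD mice (blue), and the groups overlap.

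Lcn2 showed another pattern. Its levels in AD mice 1 to 5 were 22.6, 23.3, 25.0, 25.0 and 14.6 CPM, so the mouse with the most calprotectin RNA was ordinary for lipocalin 2. In HF + AD they ranged from 13 to 115 CPM (median 35.8 CPM), and 5 of 7 mice were above every AD mouse while mouse 6 was below them all. The edgeR log2 fold change was 0.91 ± 0.41 (SE, unadjusted p = 0.0429, adjusted p = 0.181). Without HF + AD mouse 1, which held 2.79 times the next highest level of its group, the log2 fold change was 0.40 (edgeR adjusted p = 0.495). The log2(CPM + 1) means were 4.51 ± 0.307 (SD, n = 5) and 5.09 ± 0.996 (SD, n = 7), with p = 0.253 by the exact permutation test.

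The receptors of neutrophils were at or near the limit of counting in AD. Csf3r had 0.907, 0, 0.404, 0.0884 and 0.362 CPM in AD mice 1 to 5, and between 0.326 and 2.31 CPM (median 0.852 CPM) in HF + AD. These are 0 to 10 reads per library in AD and 4 to 30 in HF + AD, and 3 of 7 HF + AD mice were above every AD mouse. The difference in mean log2(CPM + 1) was 0.56, from 0.398 ± 0.364 (SD, n = 5) to 0.961 ± 0.441 (SD, n = 7), with an unadjusted p = 0.0429 by the exact permutation test and p = 0.0732 on ranks (exact). Omitting any of AD mice 2 to 5, or any of HF + AD mice 1, 2, 3 and 5, took the exact p above 0.05, to at most 0.106. The values of 5 of 5 AD mice and 5 of 7 HF + AD mice lay below what 3 molecules would give in their library, and the group and its depth cannot be told apart.

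Trem1 had reads in 2 of 5 AD mice, with 0, 0, 0, 4.6 and 1.09 CPM in mice 1 to 5. It had reads in 6 of 7 HF + AD mice, up to 8.37 CPM with a median of 2.7 CPM, and 2 of 7 exceeded every AD mouse. The edgeR log2 fold change was 1.44 ± 1.29 (SE, adjusted p = 0.535). It was 3.43 without AD mouse 4 (edgeR adjusted p = 0.165), which held most of the AD reads, and 0.94 without HF + AD mouse 2 (edgeR adjusted p = 0.759). Trem1 (chr17:48232768-48246924, plus strand) overlaps the pseudogene AC241601.2 on the opposite strand, and whether counting used strand is not given in the sources used here.

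Retnlg, the resistin-like gene, had 0, 0.931, 0, 0.354 and 0.814 CPM in AD mice 1 to 5. In HF + AD it ranged from 0 to 6.51 CPM with a median of 1.22 CPM, and 4 of 7 mice were above every AD mouse. The edgeR log2 fold change was 2.37 ± 1.26 (SE, adjusted p = 0.256). The exact permutation test on log2(CPM + 1) gave p = 0.139, with means of 0.449 ± 0.453 (SD, n = 5) and 1.32 ± 1.09 (SD, n = 7).

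The granule genes were at or near 0 reads. Ngp had 2 reads in HF + AD mouse 2 and 0 in every other library. A count of 0 allows up to 0.257 to 0.308 CPM in the AD libraries by reads alone, and more by molecules. Camp had 2 reads in AD mouse 5 (0.181 CPM) and 0 in the other AD mice. It had 5 to 14 reads in 5 of 7 HF + AD mice, at most 1.05 CPM, and 0 in HF + AD mice 4 and 5. These 5 mice were above every AD mouse, and the mean log2(CPM + 1) was 0.048 ± 0.107 (SD, n = 5) in AD and 0.568 ± 0.425 (SD, n = 7) in HF + AD (exact permutation test, unadjusted p = 0.0404). The exact p lay between 0.0606 and 0.0736 with any AD mouse, or HF + AD mouse 1, 2, 3, 6 or 7, left out. All Camp values, in 5 of 5 AD and 7 of 7 HF + AD mice, lay below the level of 3 molecules in their library, so neither group's level was resolved. The groups did not overlap for 5.46% of all genes tested (2.9% with HF + AD higher), and for 0 of the 8 genes.

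Taken by mouse, Retnlg and Trem1 were high and low in the same HF + AD animals, and Camp did not follow them. Of 7 HF + AD mice, Retnlg was below 3 molecules in 4, Trem1 in 3 and Camp in 7. Whether Camp varied with them was therefore not resolved. Mice 1, 2 and 3 were the highest for Retnlg and Trem1, and mice 4 and 6 were the lowest for S100a9, Retnlg, Trem1 and Csf3r. Camp was highest in mice 7 and 6. Mice 2 and 1 had the fewest counts per molecule of their group (3.86 and 4.07). Mice 4 and 6 had 6.31 and 6.53, and mouse 5 had the most (7.29). The part of this depth in the order of the mice was not tested. Among the 7 HF + AD mice, 21 pairs of genes were compared (Ngp was left out), and Pearson's r on log2(CPM + 1) had a median of 0.65 and ranged from 0.286 to 0.969 in the 15 pairs without Camp and from 0.00338 to 0.183 in the 6 pairs with it. Spearman's rho was below 0 in 6 of 6 pairs with Camp (-0.234 to -0.018) and above 0 in the other 15. Without the 2 mice farthest from the median of the first gene of a pair, r was below 0 in 6 of 21 pairs. After adjustment over the pairs 0 of 21 passed 0.05, and 4 did at an unadjusted p. Retnlg and Trem1 had r = 0.934 (permutation p = 0.00337, adjusted 0.0667) and rho = 0.964 (permutation p = 0.00278, adjusted 0.0583), and r was 0.902 without mice 1 and 2, the farthest from the median of Retnlg. S100a8 and S100a9 had r = 0.969 (permutation p = 0.00635, adjusted 0.0667) and rho = 0.679 (permutation p = 0.11, adjusted 0.256). Without mice 4 and 6 that r fell to 0.49, so the relation rested largely on the 2 lowest mice.

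The neutrophil markers, of which 10 of 11 were in the tables, summed to 2.81, 1.66, 0.706, 8.66 and 5.7 CPM in AD mice 1 to 5 and to 2.2 to 23.8 CPM in HF + AD, with a median of 13.6 CPM. This sum contains Csf3r, Retnlg, Trem1, Ngp and Camp and so is no separate evidence. Of the markers outside the 8 genes, Cxcr2 encodes the main chemokine receptor of mouse neutrophils. It had 0.303 to 1.9 CPM in AD and 0.408 to 6.52 CPM in HF + AD (edgeR log2 fold change 2.02 ± 0.77 (SE), adjusted p = 0.106). Each AD value of Cxcr2 was below the level of 3 molecules in its library. Mpo had reads in AD mouse 4 and HF + AD mouse 6 alone, and Elane in HF + AD mouse 4 alone, both being granule enzymes. Ly6g was not analysed here.

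Likeness was taken as Pearson's r of log2(CPM + 1) over the 12 libraries, after each group was centred on its mean. For S100a8 the genes most alike among 13199 were S100a9 (r = 0.943), Atp5l (0.933), BC100530 (0.931), Sprr2e (0.929) and Stfa1 (0.924). AD mouse 1 weighs heavily in these values. Within the 7 HF + AD mice alone, they were 0.969, 0.75, 0.85, 0.827 and 0.913. Likeness of S100a8 to the other genes of the group was 0.714 for Csf3r, 0.198 for Lcn2, 0.132 for Retnlg and 0.0348 for Trem1 over the 12 libraries, and 0.72, 0.359, 0.763 and 0.803 within the 7 HF + AD mice. For Csf3r the most alike of 13200 genes were Prss12 (0.936), Bcl2l15 (0.926), Cox5b (0.922), Bok (0.916) and Hif1a (0.905). With 0 to 30 reads per library for Csf3r these values are loose. They describe the same 12 libraries and carry no test.

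The genes around these 8 were read in 6 lists with 107 genes in all, of which 85 were tested. The edgeR test called 6 higher and 2 lower in HF + AD, against 4.43% and 4.77% of all genes tested. The median log2 fold change of the 85 was 0.31. Among signals that recruit neutrophils, 1 of 9 tested genes was called: Cxcl5, a ligand of Cxcr2, had 2.08 to 11.7 CPM in AD and 2.61 to 178 CPM in HF + AD (log2 fold change 2.67 ± 0.80 (SE), edgeR adjusted p = 0.0450). That call was lost when any AD mouse, or HF + AD mouse 1, 2, 3 or 7, was left out (adjusted p up to 0.101). The Cxcl5 values of AD mice 3 and 5 (4.84 and 2.08 CPM) lay below the level of 3 molecules in their libraries (4.93 and 3.17 CPM). The ligands Cxcl1 and Cxcl2 had log2 fold changes of 0.92 and 1.51 (edgeR adjusted p = 0.460 and 0.252), and Il1b 0.12 (edgeR adjusted p = 0.927). Csf3, the ligand of Csf3r, had reads in HF + AD mice 2 and 4 alone, and Il17a, Il17f and Il22 had 0 reads in all 12 libraries.

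Among 28 other neutrophil genes tested, 1 was called, against 9.2% of all genes tested. The count was 4 without AD mouse 2, 2 without AD mouse 4, AD mouse 5 or HF + AD mouse 5, and 3 with DESeq2 or limma-trend. Mmp9, a gelatinase of neutrophil granules that macrophages and keratinocytes can also make, had 0, 0, 3.03, 1.94 and 1.09 CPM in AD mice 1 to 5 and 6.43 to 259 CPM (median 23.3 CPM) in HF + AD. The groups did not overlap, as for 5.46% of all genes tested, and the log2 fold change was 5.61 ± 1.06 (SE, edgeR adjusted p = 0.00714). Each AD value was below the level of 3 molecules in its library. Macrophage and dendritic cell markers summed to 47.6 to 213 CPM in AD and 74.9 to 318 CPM in HF + AD, with 0 of 12 called. The 213 CPM were those of AD mouse 1. Without it 3 of 12 were called higher in HF + AD, against 775 of 14410 genes tested. The part of these markers in the Mmp9 difference was not tested. The integrin Itgam, shared by neutrophils and macrophages, had a log2 fold change of 0.36 (edgeR adjusted p = 0.586).

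Of 14 receptors, adaptors and ligands tested, 1 was called, against 9.2% of all genes tested: Slc22a17, a receptor reported for lipocalin 2. It had 1.61 to 4.66 CPM in AD and 5.58 to 13.7 CPM in HF + AD (log2 fold change 1.31 ± 0.40 (SE), edgeR adjusted p = 0.0494). The values of AD mice 1, 2 and 3 (4.53, 4.66 and 1.61 CPM) lay below the level of 3 molecules in their libraries (8.26, 8.99 and 4.93 CPM). The group and its depth cannot be told apart there. The call was lost with any mouse left out except AD mouse 1 or HF + AD mouse 3 (adjusted p up to 0.130). Tlr4, the receptor for calprotectin, and Tyrobp, the adaptor of Trem1, had log2 fold changes of 1.68 and 0.14 (edgeR adjusted p = 0.306 and 0.898). Each AD value of Tlr4 was below the level of 3 molecules in its library.

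IL-17 is known to raise Lcn2 and the calprotectin genes in keratinocytes, and a list of its receptor and of transcriptional regulators was read. Of 10 genes tested, 2 were called lower and 0 higher, against 4.77% and 4.43% of all genes tested. Il17ra, a subunit of the IL-17 receptor, had 68.9 to 96.3 CPM in AD and 42.5 to 57.6 CPM in HF + AD (log2 fold change -0.67 ± 0.14 (SE), edgeR adjusted p = 0.0103). Nfkbiz, which encodes the co-activator IkB-zeta, had 84.6 to 119 CPM and 46.4 to 82 CPM (log2 fold change -0.76 ± 0.16 (SE), edgeR adjusted p = 0.0113). In both genes every HF + AD mouse was below every AD mouse, and both calls held with each mouse left out. The groups did not overlap, in either direction, for 5.46% of all genes tested.

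Of 14 epidermal antimicrobial genes tested, 1 was called, against 9.2% of all genes tested. Slpi, an inhibitor of neutrophil elastase, had 10.3 to 24.6 CPM in AD and 12.8 to 95.5 CPM in HF + AD (log2 fold change 1.58 ± 0.43 (SE), edgeR adjusted p = 0.0284). Omitting any of AD mice 2 to 5, or either of HF + AD mice 1 and 2, lost that call (adjusted p up to 0.0667). S100a7a, the mouse relative of psoriasin, had a log2 fold change of 0.72 (edgeR adjusted p = 0.514). The stress keratins Krt6a and Krt16 had 0.25 and 0.07 (edgeR adjusted p = 0.619 and 0.941), and Krt16 passed the test only without AD mouse 1 (0.95, edgeR adjusted p = 0.0319).

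Of the other S100 genes, 12 were tested and 2 were called higher, against 4.43% of all genes tested. S100a3, known from the hair cuticle, had 319 to 675 CPM in AD and 472 to 1580 CPM in HF + AD (log2 fold change 1.32 ± 0.27 (SE), edgeR adjusted p = 0.00874). The hair shaft keratins summed to 2570 to 5270 CPM in AD and 3970 to 6580 CPM in HF + AD, with 3 of 9 called higher, and their part in the S100a3 difference was not tested. S100a6, a gene of proliferating cells and fibroblasts, had 419 to 667 CPM and 640 to 1950 CPM (log2 fold change 0.91 ± 0.24 (SE), edgeR adjusted p = 0.0268), and omitting any of AD mice 2 to 4, or HF + AD mouse 2, lost the call (adjusted p up to 0.0676).

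Markers of other cells were read beside these genes. Of the macrophage, T cell, mast cell, hyperproliferative epidermis and erythroid markers 0 were called, and no B cell marker had enough reads to be tested. Without AD mouse 1, however, 775 of 14410 genes tested were called higher in HF + AD. They included 3 macrophage markers (Csf1r, C1qa and C1qc), 2 of hyperproliferative epidermis (Krt16 and Sprr2h) and 2 beta-globin copies. The log2 fold changes of these markers were 2.30, 1.84, 1.69, 0.95, 1.83 and, for both globin copies, 1.84 (edgeR adjusted p = 0.0202, 0.0166, 0.0482, 0.0319, 0.00993 and 0.0297). Basal and suprabasal keratinocyte markers summed to 3750 to 5750 CPM in AD and 6290 to 10900 CPM in HF + AD. Here 3 of 8 were called higher, against 4.43% of all genes tested. Skeletal muscle markers summed to 1370 to 3050 CPM and 869 to 2220 CPM. Here 2 of 10 were called lower (0 without AD mouse 1), against 4.77% of all genes tested. Those 2, Acta1 and Atp2a1, had log2 fold changes of -0.72 and -0.82. Without AD mouse 1 these were -0.75 and -0.70 (edgeR adjusted p = 0.0525 and 0.0659). Of the 10, 1 lay above 0, and 7 were lower at an unadjusted edgeR p below 0.05, against 12.8% of all genes tested. The part of these shifts in the levels of the 8 genes was not tested.

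**Figure D4:**
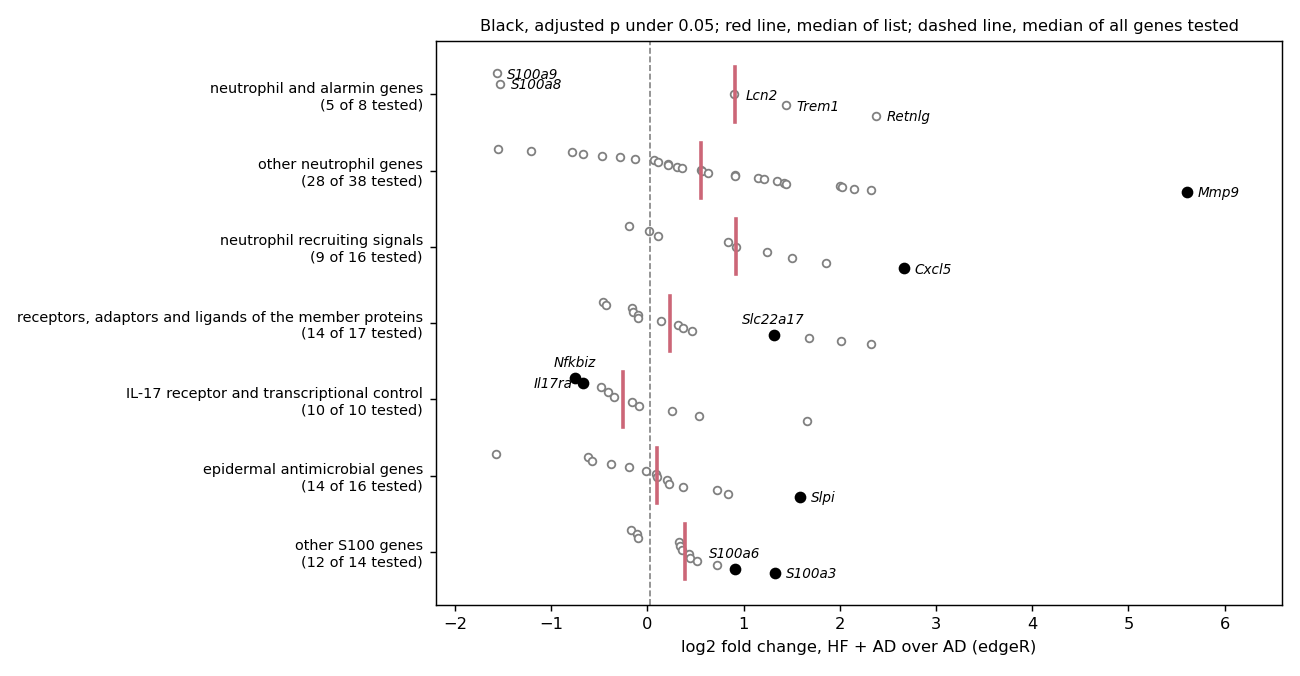
log2 fold change of HF + AD over AD from edgeR for every tested gene of the 8 genes and of the 6 lists, with genes at an adjusted p below 0.05 in black and named, and the rest as open circles. The red line is the median of each list and the dashed line the median of all genes tested (0.02); the calprotectin genes lie to the left of 0, and Lcn2, Trem1 and Retnlg to the right.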

How the data were processed

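RNA of dorsal skin was made into QuantSeq 3′ libraries, which read the end of each message, and sequenced on an Illumina instrument. For each mouse the authors deposited unnormalised counts of reads, listed by gene symbol. The submitters' processing notes name Bowtie2, bedtools and mm10, without versions, and the handling of duplicate reads and of strand is not given in the sources used here. Counts were tested with edgeR 4.0.16 (TMM scaling, filterByExpr, quasi-likelihood F test, Benjamini-Hochberg adjustment over 14163 genes, threshold 0.05) with all 12 libraries and the group as the only term. CPM (counts scaled per library) used the TMM-scaled totals. Single genes and the S100a8 to S100a9 quotient were compared by exact two-sided permutation tests over 792 splits (smallest p 0.00126) with a pseudocount of 1. QuantSeq counts are not scaled to length, so levels were compared between mice and not between genes, the quotient included. DESeq2 1.42.0, limma 3.58.1 (R 4.3.3), other filters, scalings and each mouse left out were alternatives. An alternative that divided counts by the estimated counts per molecule was added after the data were seen. The fit was tested on simulated data. Genes named outside the 8 were those past the threshold in each list (at most 4), a set of key genes, and the 5 genes most like S100a8 and Csf3r with a mean count of at least 20. The genes, lists and motifs were chosen with earlier results of these data known, and the motifs and their window were changed after their first matches had been seen. Il36 genes were matched through older symbols. Intervals and floors (3 counts) cover counting error only. The labels do not say more than that each library is a separate sample, so p-values measure the spread between these samples.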

Additional observations from a re-analysis of the deposited data

Results flagged for a closer look

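In 56 groups of 5 or 7 libraries, Dixon's test at the 95% level set a library apart in 13, where chance would flag about 1 in 20. All values here are log2(CPM + 1). AD mouse 1 was highest for S100a8 (11.23, median of the other AD mice 6.63), S100a9 (10.34 against 7.01), Krt16 (9.9 against 7.56) and Slpi (4.68 against 3.62). AD mouse 5 was lowest for Lcn2 (3.97 against 4.65) and highest for Camp (0.24 against 0). AD mouse 3 was lowest for Cxcl2 (0.14 against 4.14), and AD mouse 4 was the only AD mouse with reads of Mpo (0.53). In HF + AD, mouse 2 was set apart for Ngp (0.21 against 0) and Csf3 (1.11 against 0), mouse 6 for Mpo (0.65 against 0) and for the lowest Itgam (2.76 against 3.69), and mouse 1 for S100a6 (10.93 against 9.58). The flags for Ngp, Camp, Csf3 and Mpo rest on libraries that held reads of a gene listed at 0 in most others.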

How the results depend on the processing

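None of the 8 genes was called in any of 21 alternatives, in which 3 to 8 of them could be tested. The log2 fold change of S100a8 reversed without AD mouse 1, its range with each mouse left out being -1.80 to 0.70. Its difference in log2(CPM + 1) reversed there as well (range -0.562 to 0.598) and on ranks (1.2, as a difference of mean ranks). DESeq2 gave no adjusted p for S100a8 and S100a9. The difference between groups in the mean log2 S100a8 to S100a9 quotient ranged from 0.52 to 0.937 with each mouse left out. With log2(CPM + 0.1), 1 pair of genes passed among the correlations. Over all genes, 639 to 1461 were called with each mouse left out, against 1303, and the count moved by over 1.5 times on omitting HF + AD mice 2 (639), 1 (686) and 4 (794) and AD mouse 2 (803), each in turn. The 6 lists gave 4 to 9 calls against 8, with 4 on omitting AD mouse 3, or mouse 2 of HF + AD, and 5 on omitting AD mouse 4, or mouse 1 of HF + AD. With library totals alone 744 genes were higher and 519 lower, against 627 and 676. Replicate numbers did not pair the mice: same-numbered mice correlated at -0.106 to 0.0724, and the number was the best partner for 1 of 5. A fit with the replicate number as a block called 192 genes, 1 list gene (Slpi, among the epidermal antimicrobial genes) and 0 of the 8. Depth limits Csf3r, Retnlg, Trem1, Ngp and Camp, whose AD levels were mostly, and HF + AD levels often, below 3 molecules.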
